A study of Mus musculus with 16 samples.

Results

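The cytosolic heat shock genes were examined in islets from diabetic mice after culture with adjudin. The genes were chosen by name: *Hspa1a*, *Hspa1b*, *Hspa8*, *Hsph1*, *Dnajb1*, *Hsp90aa1*, *Hsp90ab1*, *Hspb1*, *Bag3* and *Hsf1*. All 10 symbols were found among the 54532 genes of the count table, and all 10 passed the filter on low counts. RNA was sequenced from cultured islets of 12- to 13-week-old male *db/db* mice of the strain BKS(D)-Leprdb/JOrlRj, obese and diabetic for want of a functional leptin receptor. There were 8 samples cultured for 1 day with 10 µmol/l adjudin and 8 cultured for 1 day with the solvent DMSO, all in RPMI medium with 11 mmol/l glucose. Each of 8 numbered batches held 1 sample of each treatment. By the study's methods a sample held the islets of 1 to 2 mice, and batches of aberrant islets were not used. Every sample carried the *db/db* genotype, so the comparison concerns diabetic islets only.

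Heat shock proteins are chaperones: they hold unfolded proteins in solution, help them fold or pass them on for degradation. The transcription factor HSF1 is kept inactive by chaperones in unstressed cells. When misfolded proteins accumulate it forms trimers, binds heat shock elements, which are repeats of the unit GAA in alternating orientation, and switches on the inducible chaperone genes. *Hspa1a* and *Hspa1b* encode the inducible HSP70, *Hspa8* the constitutive HSC70. DNAJB1 (HSP40) hands clients to HSP70, HSPH1 (HSP110) exchanges its nucleotide and BAG3 links it to selective autophagy. *Hsp90aa1* encodes the inducible and *Hsp90ab1* the constitutive cytosolic HSP90. HSPB1 is a small heat shock protein that holds unfolded clients without using ATP. Beta cells make large amounts of insulin, and their protein folding load is known to rise in diabetes.

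The *Hspa1* promoters are shown because the 2 genes are near copies of each other, which bears on every value given for either of them. *Hspa1a* lay at chr17:34969190-34972156 and *Hspa1b* at chr17:34956436-34959238 on the minus strand of GRCm38, with 9951 bases between them. Sequences came from RefSeq (GRCm38.p6) windows running from 250 bases before to 50 bases after a transcription start. The 250 bases before the starts are printed 5′ to 3′ on the strand of the gene. Capitals mark matches to the paired heat shock units GAANNTTC and TTCNNGAA, each of which reads the same on both strands. *Hspa1a* is at chr17:34972157-34972406, *Hspa1b* at chr17:34959239-34959488, both on the minus strand, and *Hspb1*, the member that fell, at chr5:135887669-135887918 on the plus strand.
Hspa1a: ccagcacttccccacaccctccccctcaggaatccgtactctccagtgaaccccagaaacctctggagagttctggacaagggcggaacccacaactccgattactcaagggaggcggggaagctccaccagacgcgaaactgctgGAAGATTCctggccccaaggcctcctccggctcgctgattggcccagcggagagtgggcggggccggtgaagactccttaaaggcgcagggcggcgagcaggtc
Hspa1b: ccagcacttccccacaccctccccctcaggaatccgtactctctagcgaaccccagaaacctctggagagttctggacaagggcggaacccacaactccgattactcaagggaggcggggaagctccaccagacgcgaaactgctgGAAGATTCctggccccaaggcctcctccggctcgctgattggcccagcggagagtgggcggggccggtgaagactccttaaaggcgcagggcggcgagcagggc
Hspb1: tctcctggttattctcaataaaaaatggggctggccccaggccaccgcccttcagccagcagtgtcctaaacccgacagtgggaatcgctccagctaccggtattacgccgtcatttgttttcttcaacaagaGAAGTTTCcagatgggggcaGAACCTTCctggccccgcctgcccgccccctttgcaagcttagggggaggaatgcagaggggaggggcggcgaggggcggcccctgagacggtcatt

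The 2 *Hspa1* stretches had the same base at 247 of 250 positions (98.8%), and both held GAAGATTC at positions -104 to -97, counted back from the base before the start. *Hspb1* held 2 pairs, GAAGTTTC at -117 to -110 and GAACCTTC at -97 to -90. Promoter windows were found for 6 of the 10 members. A paired unit occurred in those of 5 members, namely *Hspa1a*, *Hspa1b*, *Hspb1*, *Hsph1* and *Bag3*, and in neither of the 2 windows of *Dnajb1*. Of all 32851 RefSeq promoter windows of the same 300 bases, 15.1% held a paired unit. A run of 3 units, alternating GAA and TTC with 2 bases between neighbours and searched on both strands, occurred in 0.603% of all windows and, among the members, in *Hsph1* alone. This run overlaps 2 of its paired units and is shown in capitals, just after the start, at chr5:149636280-149636308 on the minus strand.
Hsph1: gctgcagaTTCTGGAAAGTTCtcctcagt
A match to these letters is a description of the sequence and does not show binding. Only exact units were searched, so the lack of a match does not show that a heat shock element is absent. The genes with a paired unit included members that rose, that fell and that were not called.

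The identity of the *Hspa1* genes went on into their transcripts. Their coding sequences, 1923 bases in *Hspa1a* and 1926 in *Hspa1b*, were 99.4% identical with 11 differences. Of the 2818 stretches of 150 bases, the read length, in the *Hspa1a* transcript, 1074 (38.1%) occurred letter for letter in *Hspa1b*, and they made up 40.5% of those of *Hspa1b*. These shares are for single reads. Sequencing was paired-end, and a pair of reads is ambiguous only where both of its reads are shared. How reads that match both genes were counted is not given in the sources used here, so the separate values of the 2 genes are uncertain and their sum is given beside them. No such stretch was shared between *Hspa1a* and *Hspa8* or between *Hsp90aa1* and *Hsp90ab1*. *Gm20481*, annotated on the opposite strand across 564 exonic bases of *Hspa1a*, had a count of 0 in all 16 samples. *Bag3* and *Hspa8* overlap other annotated genes on their own strand, *2610306O10Rik* for *Bag3* and 3 small nucleolar RNA genes for *Hspa8*.

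Total counts were 24852862 to 34471164 with adjudin and 24190102 to 32675186 with DMSO. *Ins1* and *Ins2* together made up 3.25 to 9.04% of counts with adjudin and 3.02 to 10.3% with DMSO, and all 10 beta cell markers passed the filter. Acinar cell markers were also present, with a summed level of 6057 to 11318 CPM (counts scaled to the size of the library) with adjudin and 5597 to 13757 CPM with DMSO. Libraries of the same batch were alike, and batches 2 and 3 stood apart in both treatments: 22.4% of the 16910 genes tested had all 4 of these libraries above or all 4 below the other 12. Batch 4 stood apart in another way, with the lowest share of *Ins1* and *Ins2*, 3.25% with adjudin and 3.02% with DMSO, against 5.65 to 9.04% and 5.68 to 10.3% in the other batches. Calls of members that were lost without batches 2 and 3 or without batch 4 are given beside the results. With adjudin, 886 genes (5.24%) passed an adjusted p of 0.05 in the quasi-likelihood test of edgeR with batch as a term, 367 (2.17%) of them higher and 519 (3.07%) lower. At an unadjusted p under 0.05, 3550 genes (21%) passed. Of the members, 3 passed on the adjusted and the same 3 on the unadjusted scale: *Hspa1a* and *Hspa1b* were higher and *Hspb1* was lower with adjudin. The other 7 differed by at most 0.042 on the log2 scale. The median log2 fold change was -0.00077 over the members and 0.0032 over all genes tested. Groups overlapped for all 10 members, as they did for all but 3 (0.0177%) of the genes tested. Islets were measured as bulk tissue, so a lower level can come from fewer cells of a type or from less RNA per cell.

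**Figure D1:**
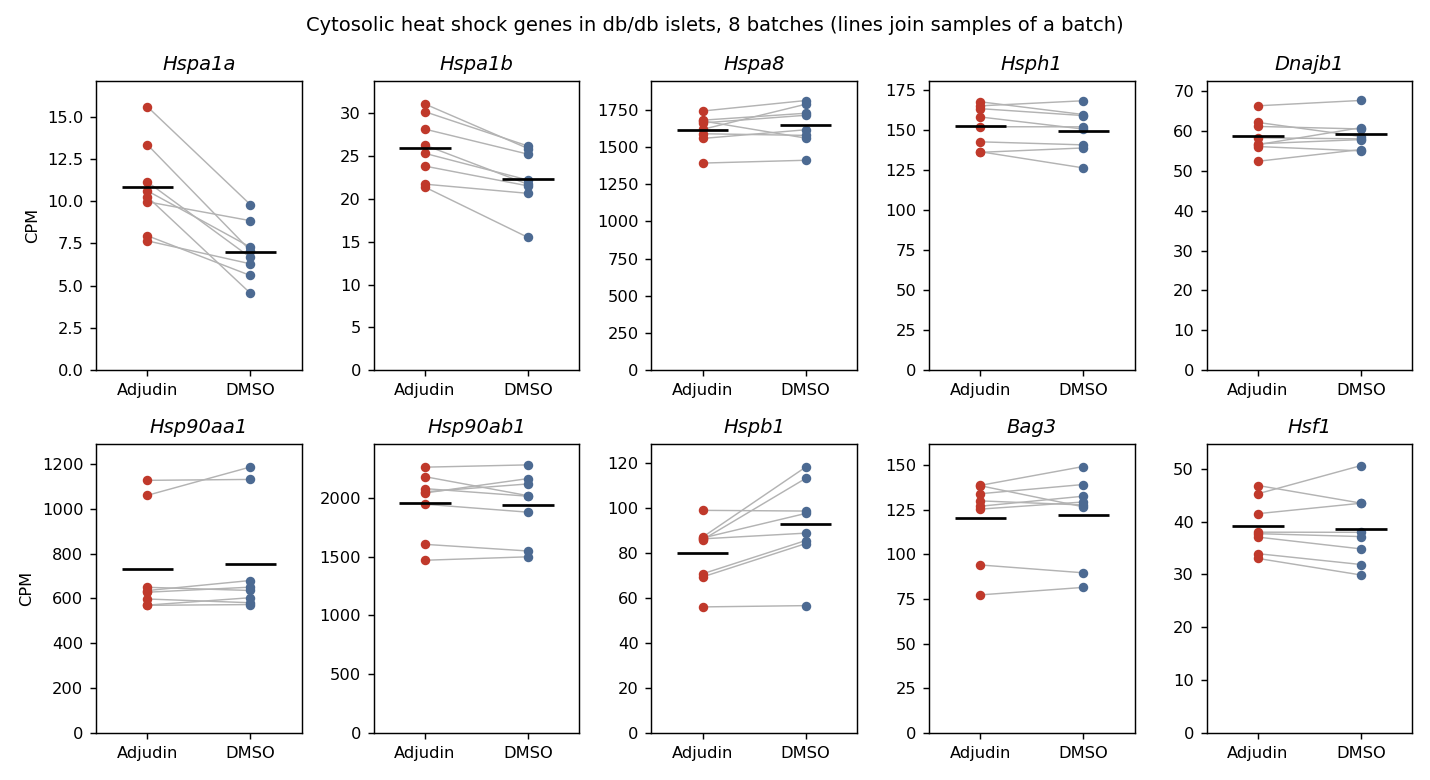
Level of each cytosolic heat shock gene (y axis, CPM, starting at 0) in 8 adjudin and 8 DMSO samples; points are samples, grey lines join the samples of a batch and black bars are means. All 8 lines run higher on the adjudin side for *Hspa1a* and *Hspa1b*, and 7 of 8 run lower there for *Hspb1*.

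In the 8 DMSO samples, levels were compared between genes as CPM per kilobase of the gene length given with the counts. *Hsp90ab1* had the highest median level, 672 CPM per kilobase, followed by *Hspa8* with 387 and *Hsp90aa1* with 164. *Hspb1* had a median of 90.3 CPM per kilobase, *Bag3* 50.2, *Hsph1* 20.9 and *Dnajb1* 18.2. The inducible HSP70 pair and the regulator were lowest, with 7.84 CPM per kilobase for *Hspa1b*, 5.29 for *Hsf1* and 2.32 for *Hspa1a*. The ranges of neighbours overlapped for *Hspb1* and *Bag3*, for *Hsph1* and *Dnajb1* and for *Hspa1b* and *Hsf1*. Within samples the first of each of these pairs was still higher in 8, 7 and 8 of 8 samples. The order depends in part on length, since the deposited length counts every annotated exon. With the length of the longest coding transcript, the median of *Hsf1* was 17.9 CPM per kilobase, above that of *Hspa1b*. That of *Hspa8* was then 695 and that of *Hsp90ab1* 800, while *Hspa1a* stayed lowest of the 10.

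*Hsf1*, the regulator, had 33.0 CPM in the lowest, 37.9 in the median and 46.8 in the highest adjudin sample, against 29.9, 37.6 and 50.6 CPM in DMSO samples. The groups overlapped throughout. The log2 fold change was 0.026 (SE 0.038, 95% interval -0.054 to 0.11, adjusted p = 0.747, edgeR), and 6 of 8 batches were higher with adjudin. RNA level says nothing of the activity of HSF1, which is controlled after translation.

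The inducible HSP70 genes were the members that rose. *Hspa1a* had 7.65 CPM in the lowest, 10.4 in the median and 15.6 in the highest adjudin sample, against 4.56, 6.88 and 9.80 CPM in DMSO samples. These levels rested on 234 to 427 counts with adjudin and 129 to 284 with DMSO. The groups overlapped, although 6 of 8 adjudin samples lay above every DMSO sample, and within batches the adjudin sample was higher in 8 of 8. Among all genes tested, 2.22% were higher with adjudin in every batch. The mean was 10.8 ± 2.63 CPM with adjudin and 7.02 ± 1.68 CPM with DMSO (SD, n = 8 each). The log2 fold change was 0.62 (SE 0.092, 95% interval 0.43 to 0.82, adjusted p = 8.5e-04), a rise of 54.2%. The rise was uneven across batches, with a log2 difference of 1.16 in batch 6, where the DMSO sample was the lowest of all, 0.91 in batch 2 and 0.17 in batch 7.

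*Hspa1b*, the copy with more counts, had 21.4 CPM in the lowest, 25.8 in the median and 31.1 in the highest adjudin sample, against 15.5, 22.0 and 26.2 CPM in DMSO samples. It too was higher with adjudin in 8 of 8 batches, by 0.073 (batch 1) to 0.46 (batch 6) on the log2 scale, and 4 adjudin samples lay above every DMSO sample. The mean was 26.0 ± 3.64 CPM with adjudin and 22.4 ± 3.51 CPM with DMSO (SD, n = 8 each). The log2 fold change was 0.22 (SE 0.044, 95% interval 0.13 to 0.31, adjusted p = 0.00883), a rise of 16.5%. Without batches 2 and 3 the value was 0.21 and no longer passed (adjusted p = 0.0890), whereas *Hspa1a* kept its call there (log2 fold change 0.60, adjusted p = 0.0195). Without batch 4 both kept their calls, *Hspa1a* at 0.61 (adjusted p = 0.00407) and *Hspa1b* at 0.23 (adjusted p = 0.0233).

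Taken as a sum, the pair had 31.5 CPM in the lowest, 35.4 in the median and 45.8 in the highest adjudin sample, against 20.1, 28.4 and 36.0 CPM in DMSO samples. The sum does not depend on how reads were divided between the copies, but would lack any shared reads that were left uncounted. Its log2 fold change was 0.33 (SE 0.048, 95% interval 0.23 to 0.43, adjusted p = 8.3e-04), a rise of 25.7%. The fold change of *Hspa1a* was larger than that of *Hspa1b* in 8 of 8 batches, with a mean log2 difference of 0.40 (SD 0.25, 0.013 to 0.70). In an exact two-sided sign-flip permutation test over 8 batches this gave p = 0.00781, the smallest possible, and 0.0117 after adjustment over 3 pairs of members. *Hspa1a* accordingly made up 29.2 ± 4.11% of the counts of the pair with adjudin and 23.7 ± 2.41% with DMSO (SD, n = 8 each), a larger share in 8 of 8 batches. In CPM the gains were alike: 3.80 ± 2.05 for *Hspa1a* and 3.63 ± 1.58 for *Hspa1b* (SD over 8 batches), with the larger gain in *Hspa1a* in 4 batches. The unequal fold change thus went with unequal starting levels, and the part of the division of shared reads between the copies was not tested.

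**Figure D2:**
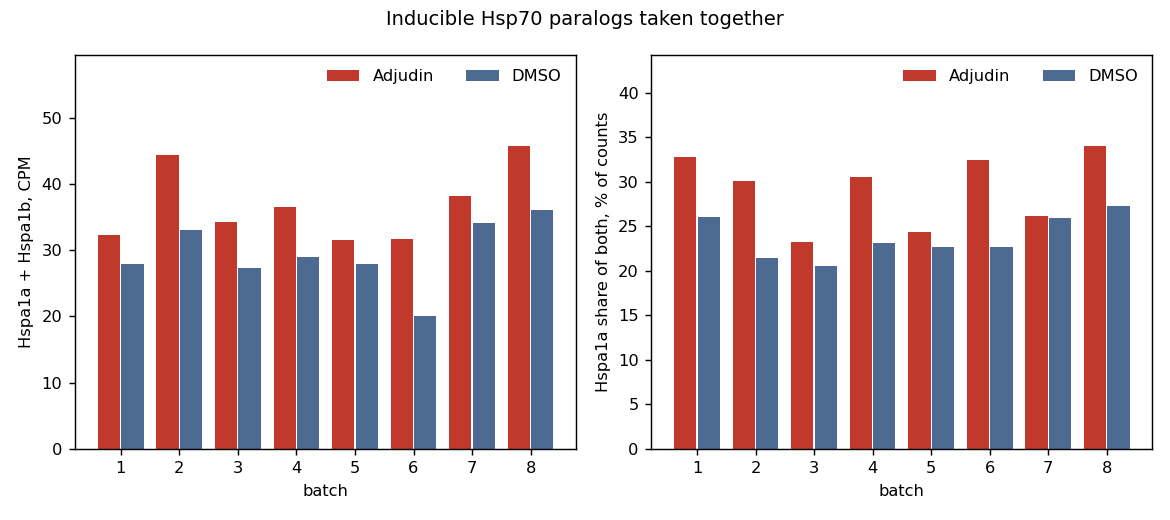
Summed level of *Hspa1a* and *Hspa1b* (left, CPM) and the share of the pair's counts assigned to *Hspa1a* (right, %), by batch, adjudin in red and DMSO in blue; bars start at 0 and are single samples. The sum and the share were both higher with adjudin in 8 of 8 batches, and the share was closest to its DMSO value in batch 7.

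*Hspa8*, the constitutive member of the family, was far more abundant and was not called. It had 1391 CPM in the lowest, 1639 in the median and 1740 in the highest adjudin sample, against 1410, 1663 and 1811 CPM in DMSO samples. The log2 fold change was -0.030 (SE 0.029, 95% interval -0.092 to 0.031, adjusted p = 0.594). The change of the summed inducible genes exceeded that of *Hspa8* in 8 of 8 batches, with a mean log2 difference of 0.36 (SD 0.16, 0.20 to 0.68). The exact sign-flip permutation test gave an adjusted p of 0.0117. With DMSO the summed pair averaged 29.4 ± 4.99 CPM, beside 1649 ± 134 CPM for *Hspa8* (SD, n = 8 each).

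The partners of HSP70 were not called. *Dnajb1*, which delivers clients, had 52.4 to 66.3 CPM with adjudin (median 57.5) and 55.0 to 67.6 CPM with DMSO (median 58.3). Its log2 fold change was -0.013 (SE 0.029, 95% interval -0.074 to 0.049, adjusted p = 0.849), with 4 batches higher and 4 lower. *Hsph1*, the nucleotide exchange factor, had 136 to 168 CPM with adjudin (median 155) and 127 to 169 CPM with DMSO (median 152), and its log2 fold change was 0.032 (SE 0.027, 95% interval -0.025 to 0.088, adjusted p = 0.537). *Bag3* had 77.4 to 139 CPM with adjudin (median 129) and 81.6 to 149 CPM with DMSO (median 129). Its log2 fold change was -0.016 (SE 0.031, 95% interval -0.080 to 0.049, adjusted p = 0.820). For these 3 genes the 95% intervals of the change lay between -5.41% and 6.32%. *Dnajb1*, *Hsph1* and *Bag3* are classical targets of HSF1, as are *Hspa1a*, *Hspa1b*, *Hsp90aa1* and *Hspb1*. These targets include members that rose, that fell and that were not called.

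The HSP90 genes were not called either. *Hsp90aa1*, the inducible form, had 569 CPM in the lowest, 632 in the median and 1127 in the highest adjudin sample, against 573, 643 and 1186 CPM in DMSO samples. Its log2 fold change was -0.042 (SE 0.029, 95% interval -0.10 to 0.020, adjusted p = 0.449). *Hsp90ab1*, the constitutive form, had 1469, 2047 and 2262 CPM in adjudin samples and 1499, 2017 and 2281 CPM in DMSO samples, in the same order. Its log2 fold change was 0.011 (SE 0.028, 95% interval -0.049 to 0.071, adjusted p = 0.868). The changes of the 2 forms differed by -0.053 on the log2 scale (SD 0.082, -0.21 to 0.053), with *Hsp90aa1* ahead in 2 of 8 batches. The exact sign-flip permutation test did not separate them (adjusted p = 0.102), although it did with batch 4 left out (-0.068, adjusted p = 0.0469).

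**Figure D3:**
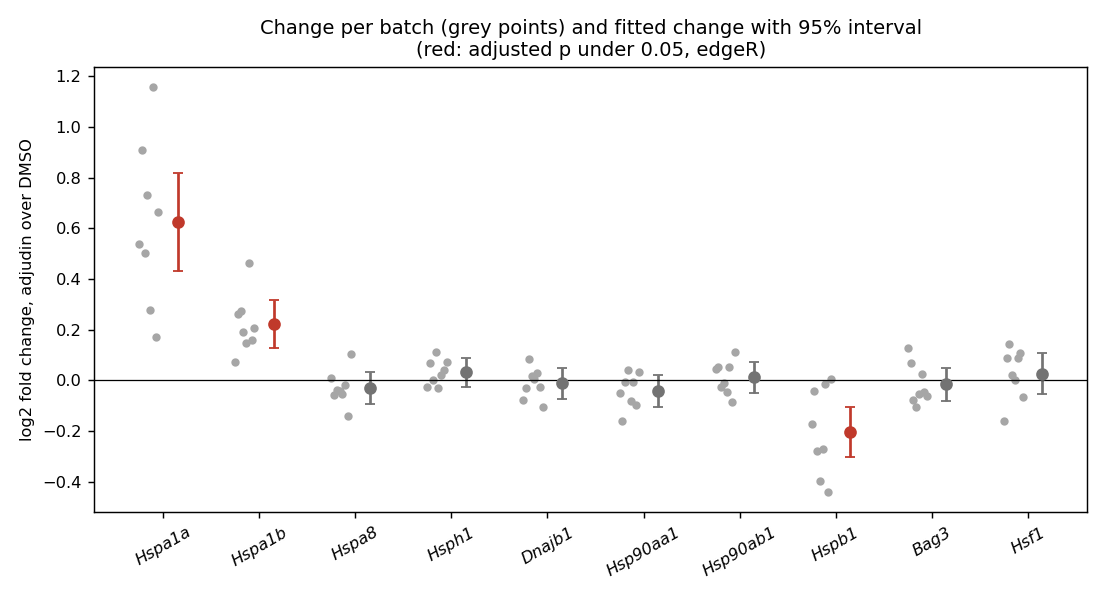
Log2 difference between the adjudin and the DMSO sample of each batch (grey points) and the fitted log2 fold change with its 95% interval (larger points, red where the adjusted p of edgeR was under 0.05), for each gene. The fitted values were 0.62 for *Hspa1a*, 0.22 for *Hspa1b* and -0.20 for *Hspb1*, and those of the other 7 genes lay between -0.042 and 0.032.

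*Hspb1*, the small heat shock protein, fell. It had 55.9 CPM in the lowest, 86.0 in the median and 98.8 in the highest adjudin sample, against 56.5, 93.1 and 118 CPM in DMSO samples. The groups overlapped almost throughout, since levels differed more between batches than between treatments, and 7 of 8 batches were lower with adjudin (10.4% of all genes tested were lower in at least 7). The mean was 80.0 ± 13.6 CPM with adjudin and 92.7 ± 19.1 CPM with DMSO (SD, n = 8 each). The log2 fold change was -0.20 (SE 0.047, 95% interval -0.30 to -0.10, adjusted p = 0.0193), a fall of 13.2%. The log2 difference reached -0.44 in batch 7 and -0.40 in batch 4 but was -0.042 in batch 2, -0.015 in batch 6 and 0.0044 in batch 8. The call was lost without batch 3 (log2 fold change -0.19, adjusted p = 0.0630), without batch 4 (-0.17, adjusted p = 0.0789) and without batches 2 and 3 together (-0.21, adjusted p = 0.0822).

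Markers of other cell types also differed between the groups. Of 14 macrophage markers 10 were lower and none higher with adjudin, with a summed level of 752 to 1008 CPM with adjudin and 790 to 1403 CPM with DMSO, lower in 8 of 8 batches. Of 12 stellate cell and fibroblast markers 7 were lower and none higher, with 10867 to 20966 CPM with adjudin and 11318 to 23240 CPM with DMSO. Of 10 beta cell markers 3 were higher and none lower, with 40095 to 105240 CPM with adjudin and 36015 to 121621 CPM with DMSO. The count of 3 beta cell calls was fragile: 1 was left without batch 2, 3, 4 or 8, and 0 without batches 2 and 3 together. That 1 call held with each single batch left out (largest adjusted p = 0.0487, edgeR). With no filter on low counts 9 were called, but calls over all genes also rose there, from 886 to 1577. Without batches 2 and 3, 7 macrophage markers and 4 stellate cell and fibroblast markers were called. Every marker of these 3 lists passed the filter on low counts. Their part in the fall of *Hspb1* or the rise of *Hspa1a* and *Hspa1b* was not tested.

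For most members nearly all of the spread lay between batches. Batch accounted for 99.0% of the variance of log2 CPM in *Hsp90aa1*, 98.2% in *Bag3*, 97.8% in *Hsp90ab1*, 94.6% in *Hsph1* and 94.2% in *Hsf1*. The share was 90.5% in *Dnajb1*, 88.2% in *Hspa8*, 80.9% in *Hspb1* and 73.0% in *Hspa1b*, and lowest in *Hspa1a* with 40.6%. With only 2 samples in each batch, such a share is well above 0 even where batch has no effect. The 40.6% of *Hspa1a* thus does not by itself show an effect of batch. The share over all genes tested was not computed, so these values are not a trait of the members. Batches 2 and 3 were outside the range of the other 6 in both treatments for 4 of 10 members, beside 22.4% of all genes tested; the 2 batches were singled out after their values were seen. *Hsp90aa1* had 1060 and 1127 CPM there with adjudin, with 569 to 650 in the other batches, and 1186 and 1131 CPM with DMSO, with 573 to 680 in the others. *Hsp90ab1* was the opposite, with 1605 and 1469 CPM in batches 2 and 3 with adjudin and 1548 and 1499 CPM with DMSO, below every other sample. *Bag3*, with 94.1 and 77.4 CPM with adjudin and 89.7 and 81.6 CPM with DMSO, and *Hsf1*, with 33.9 and 33.0 CPM with adjudin and 31.9 and 29.9 CPM with DMSO, were also lowest there. These batches thus did not hold uniformly high or low heat shock RNA, and the inducible HSP70 pair did not stand apart in them.

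**Figure D4:**
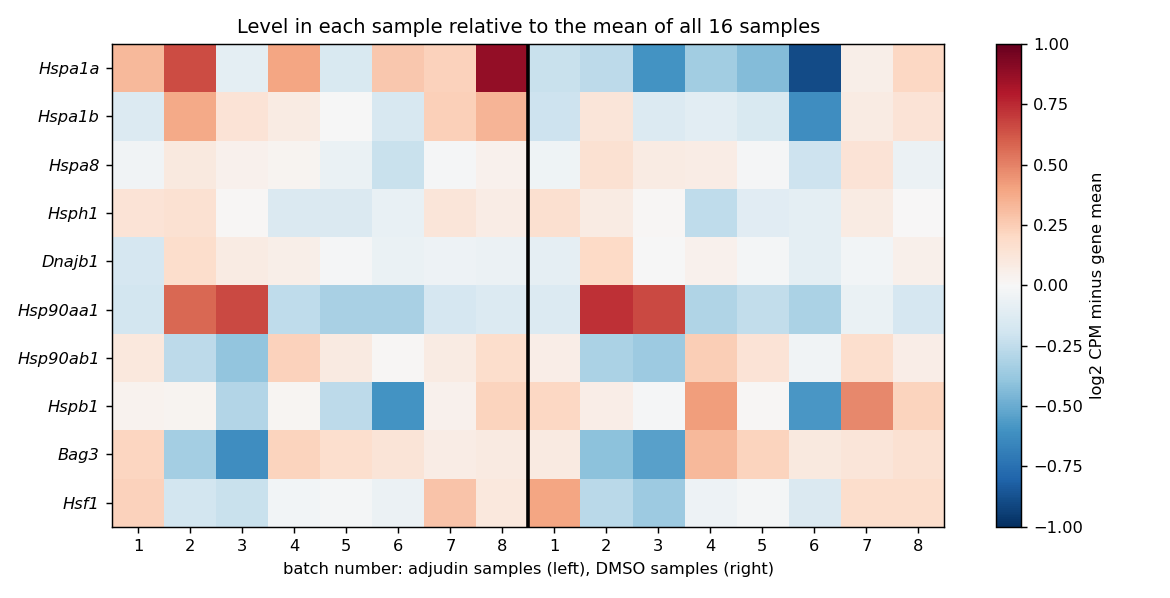
Level of each gene in each sample as log2 CPM minus the gene's mean over all 16 samples (colour scale -1 to 1), adjudin samples of batches 1 to 8 at left and DMSO samples at right. *Hspa1a* was above its mean in most adjudin samples and below it in most DMSO samples, while *Hsp90aa1* was high and *Hsp90ab1*, *Bag3* and *Hsf1* low in batches 2 and 3 of both.

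The other cytosolic chaperone genes were set beside the members. None of 7 other HSP70 and HSP110 genes passed the test (median log2 fold change 0.062), with -0.022 on that scale for *Hspa4*, the most abundant of them and an HSP110 relative (adjusted p = 0.691). Of 14 J-domain co-chaperones, the family of *Dnajb1*, 2 passed and both were higher. These were *Dnajc6*, the auxilin that uncoats clathrin vesicles, with 38.3 ± 3.42 CPM with adjudin and 33.9 ± 4.81 CPM with DMSO (SD, n = 8 each; log2 fold change 0.19, adjusted p = 0.0262). The other was *Dnaja4*, with 53.5 ± 4.03 CPM with adjudin and 49.1 ± 4.41 CPM with DMSO (log2 fold change 0.13, adjusted p = 0.0316, higher in 8 of 8 batches). Leaving out single batches ended the call of *Dnajc6* in 3 of 8 cases and of *Dnaja4* in 4, and *Dnaja4* was not called without batches 2 and 3 (adjusted p = 0.0912). The most abundant, *Dnaja1*, was not called (-0.055, adjusted p = 0.272). The median of the list was -0.0087.

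None of 19 HSP90 co-chaperones passed (median -0.034), and *Fkbp4*, an FK506 binding protein and the most abundant, had a log2 difference of 0.017 (adjusted p = 0.807). None of 8 genes for BAG proteins, other HSP70 exchange factors and the ubiquitin ligase CHIP passed (median -0.025), and *Bag6*, the most abundant, stood at -0.017 (adjusted p = 0.788). None of the 14 genes of TRiC and prefoldin, the chaperonin and its helper for actin and tubulin, passed either (median -0.057), and *Cct2*, a chaperonin subunit and the most abundant, stood at -0.060 (adjusted p = 0.223). Of 7 further heat shock factors and their binding proteins, 4 passed the filter on low counts and none was called (median -0.052), with -0.057 for *Hsbp1*, which encodes an HSF1 binding protein and was the most abundant (adjusted p = 0.300).

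Of 8 other genes listed as small heat shock proteins beside *Hspb1*, 6 passed the filter, and all 6 had log2 fold changes below 0 (median -0.16). For *Hspb2* (-0.18, SE 0.29) and *Hspb6* (-0.038, SE 0.084) the change was smaller than its standard error. Among the 6, 1 gene was called. This was *Cryab*, which encodes alpha B-crystallin, with 28.5 ± 3.36 CPM with adjudin and 35.7 ± 5.29 CPM with DMSO (SD, n = 8 each). Its log2 fold change was -0.32 (SE 0.068, adjusted p = 0.0137), it was lower in 8 of 8 batches, as were 3.15% of all genes tested, and it kept its call with each single batch left out but not without batches 2 and 3 (adjusted p = 0.0571). The most abundant, *Hspb8*, the partner of BAG3, had 52.8 ± 2.14 CPM with adjudin and 55.5 ± 4.62 CPM with DMSO (log2 fold change -0.070, adjusted p = 0.220). Summed over the 6 genes, the level was 90.9 to 104 CPM with adjudin and 98.8 to 125 CPM with DMSO, lower in 8 of 8 batches. Most of this sum came from *Hspb8* and *Cryab*.

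**Figure D5:**
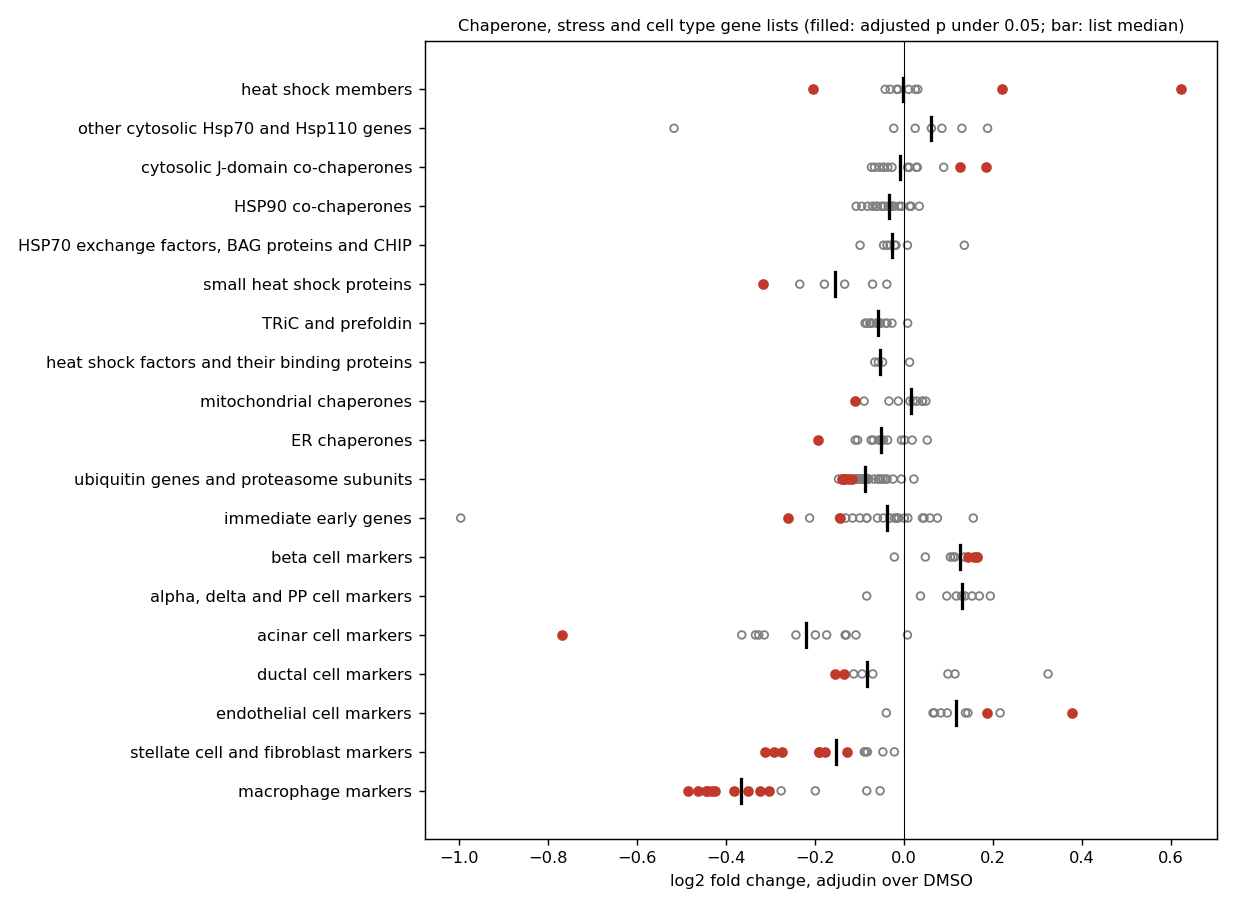
Log2 fold change of adjudin over DMSO (x axis) for each tested gene of the lists named at left; filled red points passed an adjusted p of 0.05 in edgeR and black bars are list medians. *Hspa1a* and *Hspa1b* are the filled points at 0.62 and 0.22 in the top row, and the 6 genes listed as small heat shock proteins all lie below 0.

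The genes whose level was most like that of the summed *Hspa1* pair were sought among 11044 other genes over all 16 samples. *Mt1*, which encodes a metal-binding metallothionein, came first with Pearson's r = 0.82 and Spearman's rho = 0.80 (r = 0.70 without the 2 samples farthest from the median of the pair). It rose with adjudin, with a log2 fold change of 0.60 (adjusted p = 1.4e-05). *Stx16*, a SNARE of the Golgi (r = 0.77), *Cdh17*, a cadherin (r = 0.74), *Bid*, a pro-apoptotic BCL2 relative (r = 0.74), and *Brd9*, a chromatin remodelling subunit (r = 0.72), followed. For *Cdh17* and *Bid* the value was 0.40 and 0.37 without the 2 farthest samples. The samples share batches and treatments, and the correlations are descriptions.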

How the data were processed

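Reads were aligned by the authors to GRCm38 (mm10) in HISAT2 2.0.5, and featureCounts 1.5.0-p3 gave counts per gene, which the authors deposited raw. Neither the annotation release nor the strand setting is given in the sources used here; coordinates and lengths of all 10 members matched GENCODE M21. Counts were analysed in R 4.3.3: filterByExpr left 16910 of 54532 genes, with TMM scaling. Treatment was tested in edgeR 4.0.16 (quasi-likelihood) beside a batch term, with Benjamini-Hochberg adjustment over all tested genes. Each standard error is the size of the log2 fold change divided by the root of its F value. CPM used TMM-scaled library sizes, log2 CPM a prior count of 2. The script was tested on simulated data. Samples held 24190102 to 34471164 counts. Whether the 2 samples of a batch came from the same mice is not given. The p values therefore measure how the difference within a batch varied from batch to batch, with batches as numbered. Batch numbers came from the sample labels; samples with the same number deviated together (r = 0.37 to 0.69 over the 8 pairs). No libraries of a treatment were identical or within sampling noise of each other. Pairs of members were compared by exact sign-flip tests over 256 patterns.

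The members and all gene lists (related chaperones, ubiquitin and proteasome, immediate early genes and cell type markers) were chosen with earlier results of these data known. Named are all members, up to 4 called genes with the smallest p and the most abundant gene of each list (of the cell type lists, counts only), and the 5 genes most correlated with the *Hspa1* pair. Alternatives were DESeq2 1.42.0, limma-voom (limma 3.58.1), no batch term, other scalings and filters (none, or at least 10 counts in every sample), the *Hspa1* rows summed, and each batch left out.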

Additional observations from a re-analysis of the deposited data

Results flagged for a closer look

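*Dnajb1* had 67.6 CPM in the DMSO sample of batch 2, the highest of the 8 DMSO samples and set apart from the next by 0.539 of their range, above the critical value of Dixon's test for 8 samples. The adjudin sample of the same batch was also the highest of its treatment, with 66.3 CPM. Of 30 groups of values examined in this way 1 was set apart, and chance gives about 1 in 20.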

How the results depend on the processing

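*Hspa1a*, *Hspa1b* and *Hspb1* were called with DESeq2 and limma-voom and under the other scalings and filters. Without the replicate block, that is without the batch term, 1 of all genes and 0 of the 10 members were called; the log2 fold change of *Hspa1a* was again 0.62, with an adjusted p of 0.946. Over all genes, 1577 were called with no filter on low counts. The log2 fold change of *Hspa1a* was 0.63 there, close to its main value, with a far smaller adjusted p (1.07e-14, edgeR). With single batches left out, 412 to 1071 genes and 2 to 3 members were called (genes: 548 without batch 2, 459 without batch 3, 412 without batch 4, 473 without batch 8; 886 with all batches), and the difference between *Hsp90aa1* and *Hsp90ab1* was -0.068 to -0.030. Without batches 2 and 3, an alternative chosen after seeing the data, 257 genes and 1 member (*Hspa1a*) were called. No direction of a called member was reversed. The causes were not tested. Counts of 129 to 427 limit the precision of *Hspa1a*. A single dose and 1 time were measured.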

Other observations

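The calls among chaperones outside the cytosol and among genes of protein degradation were all lower with adjudin, beside 5.24% of all genes called in either direction and 3.07% lower. Of 14 chaperones of the endoplasmic reticulum 1 was called, *Serpinh1*, the collagen chaperone HSP47, which was lower with adjudin in 8 of 8 batches (1066 ± 156 CPM with adjudin, 1220 ± 188 CPM with DMSO, SD, n = 8 each; log2 fold change -0.19, adjusted p = 0.00129 in edgeR). Stellate cell and fibroblast markers were also lower (7 of 12 called), and their part in the fall of *Serpinh1* was not tested. Of the 14 endoplasmic reticulum genes 3 had a log2 fold change above 0 (median -0.052). Their summed level was 6751 to 8025 CPM with adjudin and 6955 to 8542 CPM with DMSO, lower in 8 of 8 batches. *Hspa5*, the abundant HSP70 of that compartment, was not called (-0.055, adjusted p = 0.265). Of 10 mitochondrial chaperones 1 was called, the nucleotide exchange factor *Grpel1* (-0.11, adjusted p = 0.0323), and *Hspa9*, its HSP70 partner, was not (0.030, adjusted p = 0.582). Leaving out single batches ended the call of *Grpel1* in 5 of 8 cases, as did leaving out batches 2 and 3 together (adjusted p = 0.108). Of 36 genes listed as ubiquitin genes and proteasome subunits, *Sqstm1* among them, 5 were lower and none higher. *Sqstm1*, itself neither of these, was the 1 of the 36 with a log2 fold change above 0 (median -0.086). Called were, among others, *Psma7* (-0.14, adjusted p = 0.0187), *Psma4* (-0.12, adjusted p = 0.0231), *Psmd7* (-0.12, adjusted p = 0.0248) and *Psmc3* (-0.14, adjusted p = 0.0248). With single batches left out 0 to 7 of the list were called, with 0 without batch 4, and without batches 2 and 3 together none was. *Sqstm1*, the autophagy receptor p62, was not called (0.023, adjusted p = 0.743).

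Of 24 immediate early genes, which respond to acute stress and handling, 2 were lower and none higher (median -0.038). *Atf3*, a stress-induced transcription factor, had 21.3 ± 3.10 CPM with adjudin and 25.5 ± 4.05 CPM with DMSO (SD, n = 8 each; log2 fold change -0.26, adjusted p = 0.00116, lower in 8 of 8 batches). *Jun* changed by -0.14 on the log2 scale (adjusted p = 0.0270), a call that ended in 5 of 8 cases when single batches were left out and without batches 2 and 3 (adjusted p = 0.173). *Junb* was not called (-0.021, adjusted p = 0.786). Among the remaining cell type markers, 1 of 12 acinar (lower), 2 of 8 ductal (lower), 2 of 10 endothelial (higher) and 0 of 9 alpha, delta and PP cell markers were called. These counts were not stable. With single batches left out, 0 to 4 acinar (0 without batch 1, 2, 3, 4, 5 or 7 and 4 without batch 8), 1 to 3 ductal (1 without batch 2, 3, 5 or 7), 0 to 4 endothelial (0 without batch 4, 4 without batch 7) and 0 to 1 alpha, delta and PP cell markers were called. Without batches 2 and 3 the counts were 0 acinar, 0 ductal, 3 endothelial and 0 alpha, delta and PP. With no filter on low counts they were 10, 5, 4 and 3, in the same order, although every gene of these lists had passed the filter. Calls over all genes also rose there, from 886 to 1577.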
